A study of Mus musculus with 6 samples.

Results

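Tcf21, Meis1, Meis2, Snai2, Alx1, Tshz2 and Tshz3 are 7 genes for transcription factors of mesenchyme and stroma, and their expression was compared between Fat4-/- and wildtype kidneys. They were taken by gene name from a table of 22667 genes, and all 7 were found once, had values in all 6 libraries and passed the minimum of 1 cRPKM on average that was set for testing. The kidneys came from mouse embryos of a C57BL6/6 background at E13.5. In the mutant group 3 embryos were Fat4-/-, and in the wildtype group 3 were Fat4+/+; no other allele or treatment is named for either group. Both kidneys of an embryo, without most of the ureter, made 1 library, and the embryos came from a single pregnant female. The p-values below therefore measure the spread between animals of 1 litter.

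The renal stroma is the mesenchyme that surrounds the nephron progenitors and the branching ureteric bud, and it gives rise to interstitial cells, pericytes and smooth muscle. Its cells send signals that decide how long progenitors renew themselves, and Fat4, a large atypical cadherin, is one of the stromal surface proteins in that exchange. The 7 factors belong to 5 families. Tcf21 is a basic helix-loop-helix (bHLH) factor of kidney mesenchyme and podocytes that binds DNA together with E proteins. Meis1 and Meis2 are TALE homeodomain factors that act with Pbx and Hox proteins. Snai2 is a zinc finger repressor of epithelial genes, Alx1 a paired-type homeodomain factor best known from mesenchyme of the face, and Tshz2 and Tshz3 are teashirt zinc finger factors. In mice Tshz3 is needed for smooth muscle to form around the ureter.

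The unit throughout is cRPKM, the deposited version of RPKM with a correction by the authors. It is scaled to gene length, so that levels can be compared between genes, and to library size; read totals are unknown. Each mutant library had 17485 to 17541 genes above 0 and each wildtype library 17578 to 17705. Fat4 itself was at 7.20 to 7.82 cRPKM in mutant and 15.69 to 16.83 cRPKM in wildtype libraries (log2 fold change -1.04, limma adjusted p = 0.000155), so Fat4 RNA was lower in the mutant libraries but still detected. Foxd1 and Aldh1a2, which mark the stroma of the outer kidney, were present in all libraries, at 40.37 to 48.28 and 219.81 to 227.78 cRPKM in mutant and 36.36 to 46.16 and 217.64 to 235.69 cRPKM in wildtype libraries. Some wildtype libraries stood apart for single markers. Wildtype embryo 1 held 36.47 cRPKM of the proteoglycan gene Dcn, where the other 5 libraries had 13.93 to 19.07 cRPKM. Wildtype embryo 3 held 4.57 cRPKM of the neuronal tubulin gene Tubb3, against 0.88 to 1.25. Transcripts of the Y chromosome (Uty, Eif2s3y, Ddx3y and Kdm5d) summed to 65.27 to 72.97 cRPKM in the wildtype libraries and to 69.6 cRPKM in mutant embryo 1. They were near 0 in mutant embryos 2 and 3, so sex was uneven between the genotypes.

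Of the 7 factors, 2 fell in mutant kidneys, Alx1 and Tshz3, and none rose (limma on log2(cRPKM + 1), adjusted p under 0.05 over 12315 genes). Among all tested genes 0.877% were called lower and 0.552% higher, or 1.43% in either direction. Tcf21 and Snai2 were lower in each mutant library than in each wildtype library, with adjusted p-values just above the threshold. Meis1, Meis2 and Tshz2 overlapped between the genotypes. Thus 4 of 7 factors had mutant values entirely below the wildtype values, as did 11.0% of all tested genes, and none had mutant values entirely above them, as did 7.23%. The median log2 fold change of the 7 was -0.24, and that of all tested genes was -0.01. The median was -0.11 with a minimum mean of 5 cRPKM, where Tshz3 is not tested, and -0.19 with the Y-linked covariate described below. The 7 genes were chosen with earlier results of these data known, so neither these shares nor the medians test stromal factors as a group.

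**Figure D1:**
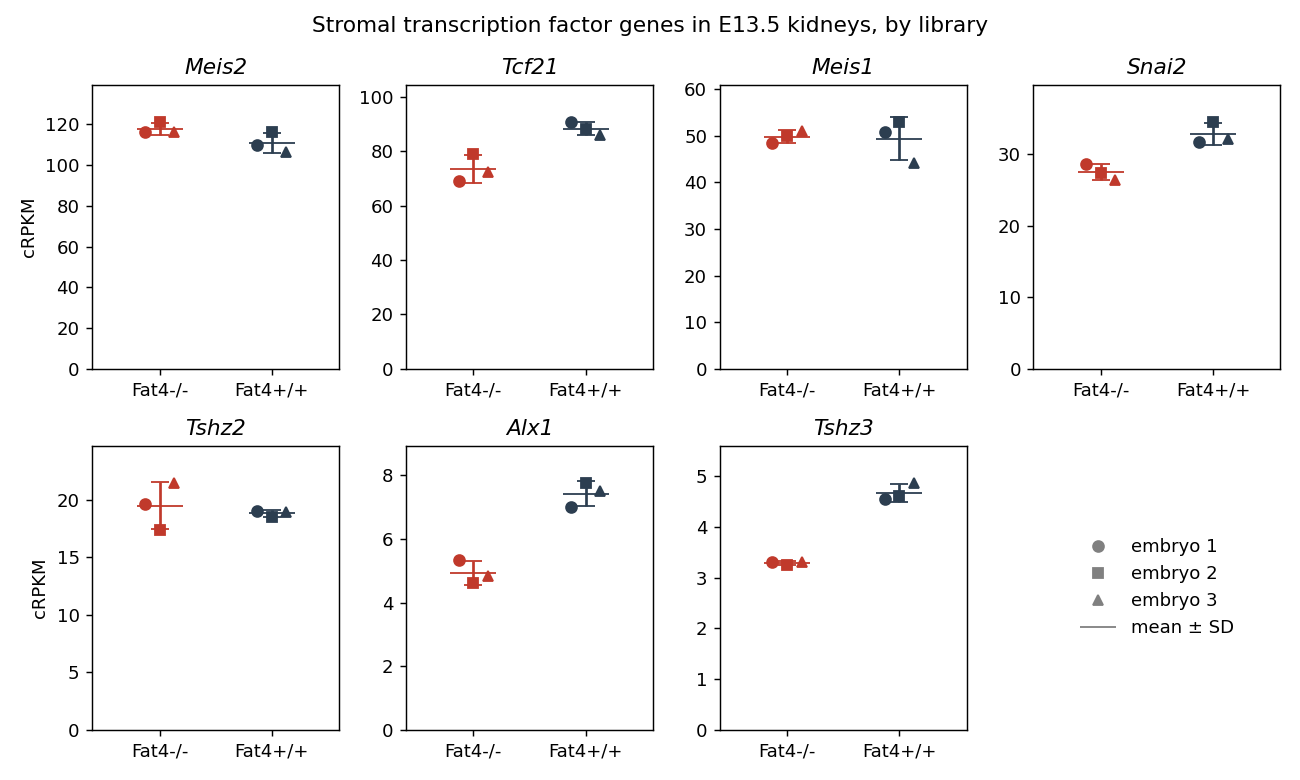
Expression of the 7 stromal transcription factor genes in cRPKM (y axis, from 0) in Fat4-/- and Fat4+/+ kidneys; symbols are embryos 1 to 3 and bars give the mean ± SD. The mutant points of Alx1, Tshz3, Tcf21 and Snai2 lie below all wildtype points, while those of Meis1, Meis2 and Tshz2 overlap them.

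Alx1 changed most among the 7. It was at 5.33, 4.60 and 4.83 cRPKM in mutant embryos 1, 2 and 3, against 7.0, 7.77 and 7.50 cRPKM in wildtype embryos 1, 2 and 3. The 3 mutant libraries are all low and the gap between the groups is wider than the range within either one. The mean was 4.92 ± 0.373 cRPKM in mutant and 7.42 ± 0.391 cRPKM in wildtype kidneys (SD, n = 3 each), or 66.3% of wildtype. Its log2 fold change was -0.51 (SE 0.0609, 95% interval -0.65 to -0.37, limma adjusted p = 0.0117), which placed it 25th of 12315 genes by p. Alx1 lies on chromosome 10 from 102998707 to 103030215 (GRCm38), and a long non-coding RNA gene overlaps it on the same strand. The call ended without mutant embryo 2 or without mutant embryo 3 (limma adjusted p = 0.0569 and 0.0571, log2 fold changes -0.47 and -0.50).

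Tshz3 was the lowest expressed of the 7 and the least variable among mutant embryos. It stood at 3.31, 3.24 and 3.31 cRPKM in mutant embryos 1, 2 and 3, against 4.54, 4.61 and 4.87 cRPKM in wildtype embryos 1, 2 and 3. The mutant embryos are almost level with each other and all lie well under the lowest wildtype embryo. The mean was 3.29 ± 0.0404 cRPKM in mutant and 4.67 ± 0.174 cRPKM in wildtype kidneys (SD, n = 3 each), or 70.3% of wildtype. This gave a log2 fold change of -0.40 (SE 0.0485, 95% interval -0.51 to -0.29, limma adjusted p = 0.0117), the 27th smallest p. On GRCm38 Tshz3 spans 36698118 to 36773553 of chromosome 7, where 5 other annotated genes overlap it, 4 of them on the same strand. Leaving out any 1 mutant embryo ended the call (limma adjusted p = 0.0520, 0.0594 and 0.0571 without embryos 1, 2 and 3), while the log2 fold change stayed between -0.42 and -0.38 whichever library was left out.

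Sex and genotype were partly tied in these libraries. Mutant embryo 1, the 1 mutant library with Y-linked transcripts, had 5.33 cRPKM of Alx1, below the wildtype range of 7.0 to 7.77, and 71.8% of the wildtype mean. For Tshz3 it had 3.31 cRPKM, below the wildtype range of 4.54 to 4.87, and 70.8% of the wildtype mean. With the level of the Y-linked genes as a covariate, Alx1 was at -0.41 (adjusted p = 0.290) and Tshz3 at -0.40 (adjusted p = 0.282) on the log2 scale in limma, and neither passed. In that fit 1 gene in all was called higher and 1 lower. When all genes above 0 in some library were tested, with no other filter, Alx1 and Tshz3 kept their log2 fold changes but missed the threshold (adjusted p = 0.0601 and 0.0531).

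Tcf21 was the second most abundant factor and also lower in every mutant embryo. It was at 69.02, 79.03 and 72.41 cRPKM in mutant embryos 1, 2 and 3, against 90.69, 88.26 and 85.81 cRPKM in wildtype embryos 1, 2 and 3. Mutant embryo 2 came closest to the wildtype libraries and still lay under the lowest of them. The mean was 73.5 ± 5.09 cRPKM in mutant and 88.2 ± 2.44 cRPKM in wildtype kidneys (SD, n = 3 each). With a log2 fold change of -0.26 (SE 0.0545, 95% interval -0.39 to -0.14) it did not pass over all genes (limma adjusted p = 0.0660). It passed with quantile normalization (0.0329) and with library weights (0.0219). In the other 12 settings tried it did not pass, among them the Y-linked covariate. With 1 library left out its limma adjusted p was 0.0595 to 0.199. Tcf21 lies on chromosome 10 from 22817281 to 22820174 (GRCm38), where 1 antisense gene overlaps it, and no source states whether reads were counted by strand. Since whole kidneys were sequenced, fewer cells that express a gene and less RNA per cell cannot be told apart, here and for the other factors.

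Snai2, at a lower level, was also lower in every mutant library. It was at 28.70, 27.44 and 26.49 cRPKM in mutant embryos 1, 2 and 3, against 31.75, 34.54 and 32.20 cRPKM in wildtype embryos 1, 2 and 3. No mutant value reached the lowest wildtype value, and the mean was 27.5 ± 1.11 cRPKM in mutant and 32.8 ± 1.5 cRPKM in wildtype kidneys (SD, n = 3 each). The log2 fold change of -0.24 (SE 0.0479, 95% interval -0.35 to -0.14) did not pass over all genes (limma adjusted p = 0.0536), and did with library weights (0.0323). In the other 13 settings tried Snai2 did not pass, among them the Y-linked covariate. With 1 library left out its limma adjusted p was 0.0796 to 0.18. Snai2 spans 14705852 to 14709385 of chromosome 16 on GRCm38, with no other annotated gene over it.

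Meis2 was the most abundant of the 7, at 116.21, 121.18 and 116.09 cRPKM in mutant and 109.85, 116.10 and 106.53 cRPKM in wildtype embryos 1, 2 and 3. The groups meet at about the level of wildtype embryo 2. Meis1 was at 48.39, 49.80 and 51.07 cRPKM in mutant and 50.84, 52.91 and 44.16 cRPKM in wildtype embryos 1, 2 and 3, where the wildtype embryos enclose all mutant values. Neither passed in limma. Their log2 fold changes were 0.09 for Meis2 (95% interval -0.02 to 0.19, adjusted p = 0.473) and 0.02 for Meis1 (95% interval -0.13 to 0.17, adjusted p = 0.949). The sign for Meis1 turned without wildtype embryo 3 (-0.06).

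Tshz2 was at 19.58, 17.34 and 21.46 cRPKM in mutant and 18.97, 18.47 and 18.95 cRPKM in wildtype embryos 1, 2 and 3. Here the mutant embryos were the more spread, with an SD of 10.6% of their mean against 1.51% in wildtype, and they lay on both sides of the wildtype values. Its log2 fold change of 0.04 did not pass (95% interval -0.11 to 0.20, limma adjusted p = 0.854) and turned to -0.03 without mutant embryo 3.

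**Figure D2:**
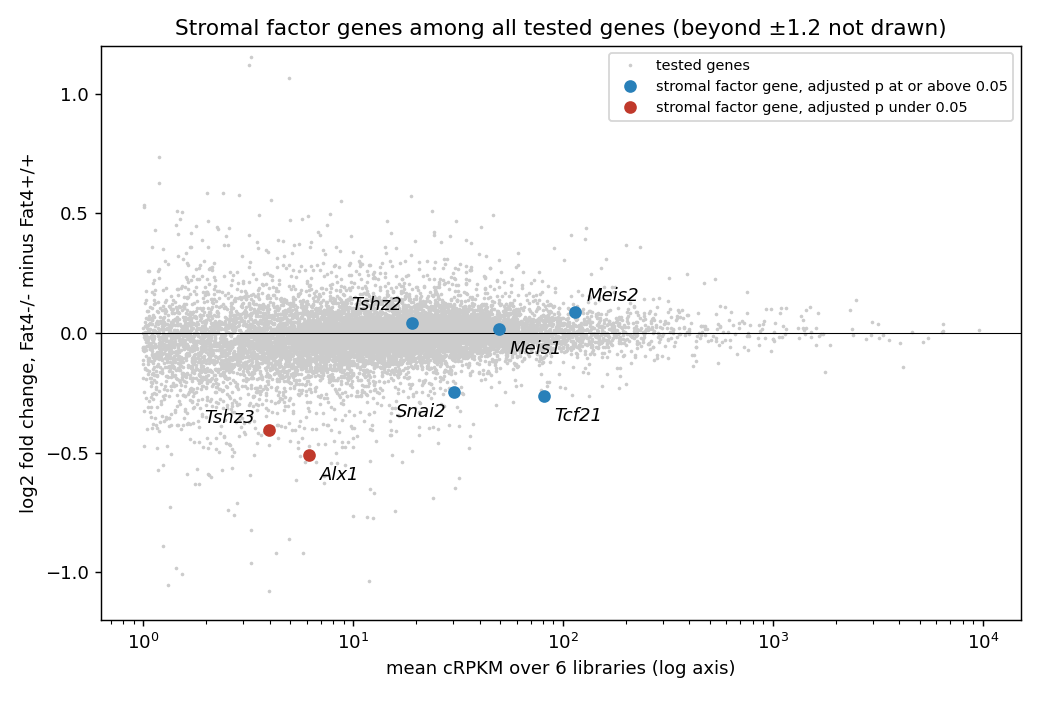
Log2 fold change on the log2(cRPKM + 1) scale, Fat4-/- minus Fat4+/+ (y axis), against mean cRPKM over 6 libraries (log x axis) for all tested genes in grey, with the 7 factors as large points. Alx1 and Tshz3, in red, passed at an adjusted p under 0.05 and lie at low levels, while the more abundant Tcf21 and Snai2 lie lower by about 0.25 and Meis1, Meis2 and Tshz2 near 0.

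The order of the levels was the same in both genotypes. From high to low it ran Meis2, Tcf21, Meis1, Snai2, Tshz2, Alx1 and Tshz3. No neighbours in that order overlapped over the 3 libraries of either genotype. The smallest gap in cRPKM was between Alx1, at 4.60 to 5.33 cRPKM in mutant and 7.0 to 7.77 cRPKM in wildtype libraries, and its neighbour Tshz3, at 3.24 to 3.31 cRPKM in mutant and 4.54 to 4.87 cRPKM in wildtype libraries. By mean level over all 6 libraries Meis2 stood 566th and Tshz3 10100th of 12315 tested genes.

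Related genes were set against each other within each library. The ratio of Tshz2 to Tshz3 in a library was 5.92, 5.35 and 6.48 in mutant embryos 1, 2 and 3, against 4.18, 4.01 and 3.89 in wildtype embryos 1, 2 and 3. The groups do not overlap. The ratio of Meis2 to Meis1 was 2.40, 2.43 and 2.27 in mutant embryos 1, 2 and 3, against 2.16, 2.19 and 2.41 in wildtype embryos 1, 2 and 3, and these overlap. The difference between paralogues in their response was not tested.

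Ratios to 2 stromal genes outside the 7 differed from each other. They follow from the levels of the factors given above and of the 2 genes given here, and are no separate result. Foxd1, the forkhead factor of stromal progenitors, was at 43.2 ± 4.43 cRPKM in mutant and 42.0 ± 5.04 cRPKM in wildtype kidneys (SD, n = 3 each, limma adjusted p = 0.901). Pdgfra, a growth factor receptor of mesenchyme, fell to 29.8 ± 0.584 cRPKM in mutant kidneys, against 41.9 ± 2.08 cRPKM in wildtype (SD, n = 3 each, limma adjusted p = 0.00427). With the Y-linked covariate its call ended (log2 fold change -0.45, limma adjusted p = 0.183), and it held in the other 13 settings. Relative to Foxd1, Alx1 was at 0.115 ± 0.0180 in mutant and 0.179 ± 0.0241 in wildtype libraries, with no overlap. Tshz3 over Foxd1 averaged 0.0767 ± 0.00831 in mutant and 0.113 ± 0.0184 in wildtype libraries, again with no overlap. Both other lower factors did not overlap relative to Foxd1 either, with Tcf21 at 1.71 ± 0.0799 in mutant and 2.12 ± 0.225 in wildtype libraries. Snai2 over Foxd1 was at 0.642 ± 0.0679 in mutant and 0.789 ± 0.0841 in wildtype libraries. Relative to Pdgfra the genotypes overlapped for both, with Alx1 at 0.165 ± 0.0102 in mutant and 0.178 ± 0.0180 in wildtype libraries. Tshz3 over Pdgfra was 0.111 ± 0.00244 in mutant and 0.112 ± 0.00741 in wildtype libraries. For Tcf21 and Snai2 the ratio to Pdgfra was higher in all mutant than in all wildtype libraries. It was 2.47 ± 0.196 in mutant and 2.11 ± 0.0929 in wildtype libraries for Tcf21, and 0.926 ± 0.0191 in mutant and 0.786 ± 0.0742 in wildtype libraries for Snai2 (all SD, n = 3 each).

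**Figure D3:**
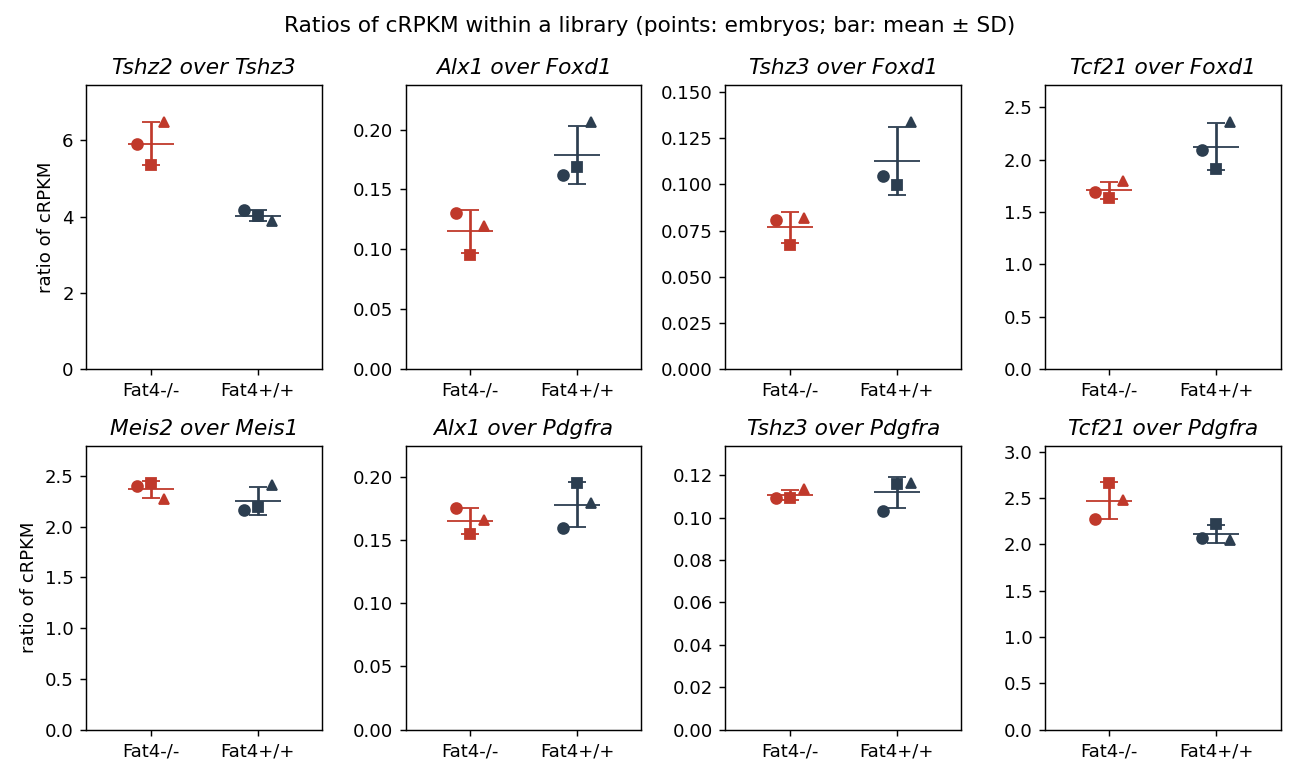
Ratios of cRPKM between 2 genes of the same library (y axes, from 0) in Fat4-/- and Fat4+/+ kidneys, with embryos as points and bars for mean ± SD. Tshz2 over Tshz3 is higher in all mutant than in all wildtype libraries, Alx1 and Tshz3 are lower relative to Foxd1 with no overlap, and relative to Pdgfra they overlap.

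Promoter sequences of RefSeq on GRCm38.p6 were matched for 5 of the 7 genes by symbol; Snai2 and Alx1 had no entry. The 250 bases before the RefSeq start site are shown for Tshz3 and Tcf21, both lower in mutant libraries, beside those of Meis1, which overlapped between genotypes. They are written on the strand of the gene, 5′ to 3′, as chr7:36697868-36698117 on the plus strand, chr10:22820144-22820393 on the minus strand and chr11:19018970-19019219 on the minus strand. Capitals mark matches, on either strand, to the site of Tead factors (GGAATG), through which the Hippo effector Yap acts, the Meis site TGACAG, or the E-box CANNTG of bHLH and Snail factors.
Tshz3: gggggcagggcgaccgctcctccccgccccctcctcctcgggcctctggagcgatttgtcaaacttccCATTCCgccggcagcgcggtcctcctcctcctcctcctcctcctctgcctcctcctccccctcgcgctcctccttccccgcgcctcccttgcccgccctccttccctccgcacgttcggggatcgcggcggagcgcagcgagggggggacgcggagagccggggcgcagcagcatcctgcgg
Tcf21: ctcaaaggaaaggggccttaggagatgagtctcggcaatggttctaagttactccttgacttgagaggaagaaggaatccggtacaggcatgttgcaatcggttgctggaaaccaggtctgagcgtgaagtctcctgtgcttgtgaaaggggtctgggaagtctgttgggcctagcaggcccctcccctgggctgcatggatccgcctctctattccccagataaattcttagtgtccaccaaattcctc
Meis1: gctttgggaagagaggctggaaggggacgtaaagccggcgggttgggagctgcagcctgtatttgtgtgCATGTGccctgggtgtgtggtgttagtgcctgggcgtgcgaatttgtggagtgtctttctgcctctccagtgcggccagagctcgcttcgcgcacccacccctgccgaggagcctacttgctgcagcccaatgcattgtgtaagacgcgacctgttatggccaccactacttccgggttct
The Tshz3 window held 1 Tead match, with its first base at -182 from the start site, and the Meis1 window 1 E-box at -181. No other match was found in the windows of the 5 genes, and no 2 matches overlapped. The Tshz2 window ended at 169632508 of chromosome 2, before the annotated gene start at 169633013. The bases after its RefSeq start site were found in no annotated transcript of Tshz2, so its lack of matches holds for that start site alone. Of 32851 promoters in that table, 12.6% held a Tead match in the same window, 15.9% a Meis match and 66.2% an E-box. A match of letters is a description of the sequence and not a bound site. The Tshz3 window had a GC content of 74.0%, that of Tcf21 52.4% and that of Meis1 59.6%.

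The wider families were followed in 7 lists of relatives, partners and programmes, with 72 genes in all. Of 55 that were high enough to test, 1 rose (Osr1), 1 fell (Zeb2) and 53 did not pass (limma, adjusted over all genes), and the median log2 fold change was -0.04. Zeb2, a zinc finger repressor that like Snai2 binds E-boxes and represses epithelial genes, was at 14.58, 13.00 and 13.35 cRPKM in mutant embryos 1, 2 and 3, against 19.29, 17.41 and 18.68 cRPKM in wildtype embryos 1, 2 and 3 (log2 fold change -0.41, SE 0.0559, limma adjusted p = 0.0191). The mutant libraries all lie below the wildtype ones. Its call ended without mutant embryo 2 or 3 (limma adjusted p = 0.0685 and 0.0796), without the filter on low values (0.0714) and with the Y-linked covariate (0.418, log2 fold change -0.32). Osr1, a zinc finger factor of early kidney mesoderm that also marks nephron progenitors, was at 26.54, 28.46 and 28.73 cRPKM in mutant embryos 1, 2 and 3, against 19.85, 22.89 and 19.62 cRPKM in wildtype embryos 1, 2 and 3 (log2 fold change 0.41, SE 0.0633, limma adjusted p = 0.0237). It lost its call without any 1 mutant embryo and without wildtype embryo 1 (limma adjusted p = 0.0631 to 0.0983), as well as without the filter (0.0801) and with the Y-linked covariate (0.504, log2 fold change 0.34).

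Among 9 TALE homeobox relatives and partners of Meis, none passed and the median log2 fold change was 0.10. Pbx2, a homeodomain partner of Meis proteins, was at 78.5 ± 2.89 cRPKM in mutant and 70.2 ± 1.83 cRPKM in wildtype kidneys (SD, n = 3 each, limma adjusted p = 0.135), and the repressor Tgif1 at 36.4 ± 1.32 and 32.3 ± 1.08 cRPKM in mutant and wildtype kidneys (adjusted p = 0.127). Mutant and wildtype values did not overlap for 7 of the 9 genes, 4 of them higher and 3 lower in mutant libraries, as they did not for 18.2% of all tested genes in either direction.

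For bHLH relatives and E protein partners of Tcf21, none of 7 tested genes passed, with a median of 0.01. Scx, a bHLH factor of tendon progenitors, had a log2 fold change of 0.18 and the E protein gene Tcf12 one of -0.11 (limma adjusted p = 0.183 and 0.313). Among Snail and Zeb factors, 1 of 3 tested fell (Zeb2), while Snai1 was at -0.13 and Zeb1 at 0.08 (adjusted p = 0.488 and 0.630). Without wildtype embryo 3 these values were -0.07 for Snai1 and 0.03 for Zeb1, and Snai1 was at -0.20 without wildtype embryo 1. The paired-type relatives of Alx1 had 3 tested genes and no call, and their median was -0.05. Prrx1 and Prrx2, homeobox genes of limb and face mesenchyme, were at -0.05 and -0.16 (adjusted p = 0.948 and 0.617). Prrx1 was highest in wildtype embryo 1, at 11.46 cRPKM, where the other libraries had 5.98 to 8.54 cRPKM, and without that embryo its sign turned (0.17). Prrx2 was at -0.05 without wildtype embryo 1 and at -0.28 without wildtype embryo 3.

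In the list around Tshz3, which holds Tshz1 and genes of ureter smooth muscle, none of 8 tested genes passed and the median was -0.15. Since the kidneys were taken without most of the ureter, this list says little about ureter smooth muscle itself. Tshz1, the third teashirt gene, was at 18.07, 17.43 and 18.29 cRPKM in mutant and 15.11, 16.30 and 16.12 cRPKM in wildtype embryos 1, 2 and 3. All mutant values lie above the wildtype ones, and the log2 fold change was 0.17 (95% interval 0.07 to 0.27, limma adjusted p = 0.124). Tbx2, a T-box factor of ureter mesenchyme, was at -0.21 (adjusted p = 0.289), and at -0.14 without wildtype embryo 3. The smooth muscle genes Acta2 and Tagln overlapped between genotypes, at 10.60 to 11.43 and 4.91 to 5.48 cRPKM in mutant and 9.80 to 15.74 and 4.92 to 7.23 cRPKM in wildtype libraries. Des, for the intermediate filament desmin of muscle cells, rose, at 50.71 to 56.73 cRPKM in mutant and 35.89 to 40.80 cRPKM in wildtype libraries (log2 fold change 0.49, limma adjusted p = 0.0119). It was the 1 of 3 tested markers of smooth muscle that passed, and the call ended without mutant embryo 2 or 3, without the filter and with the Y-linked covariate (limma adjusted p = 0.0557 to 0.314). Myocd, Myh11 and Cnn1 were under 1 cRPKM in all libraries.

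Of 17 other stromal transcription factors tested, 1 rose (Osr1) and the median was 0.04. Rarb, a retinoic acid receptor, was at 20.4 ± 0.320 cRPKM in mutant and 23.5 ± 0.551 cRPKM in wildtype kidneys (SD, n = 3 each, log2 fold change -0.19, limma adjusted p = 0.0529), with no overlap. Of 10 epithelial junction genes known as targets of Snail repression, none passed and the median was -0.14. Mutant values lay entirely below the wildtype values for 4 of the 10, as for 11.0% of all tested genes. They lay entirely above them for none, against 7.23% of all tested genes. Cdh1, for E-cadherin, was at 21.7 ± 1.26 cRPKM in mutant and 29.2 ± 5.18 cRPKM in wildtype kidneys, with no overlap (limma adjusted p = 0.129). Wildtype embryo 3 was the highest, at 35.17 cRPKM. Without that embryo the log2 fold change was -0.27 in place of -0.40, and the limma adjusted p was 0.079. The splicing regulator Esrp2 had a log2 fold change of -0.31 (adjusted p = 0.0979).

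**Figure D4:**
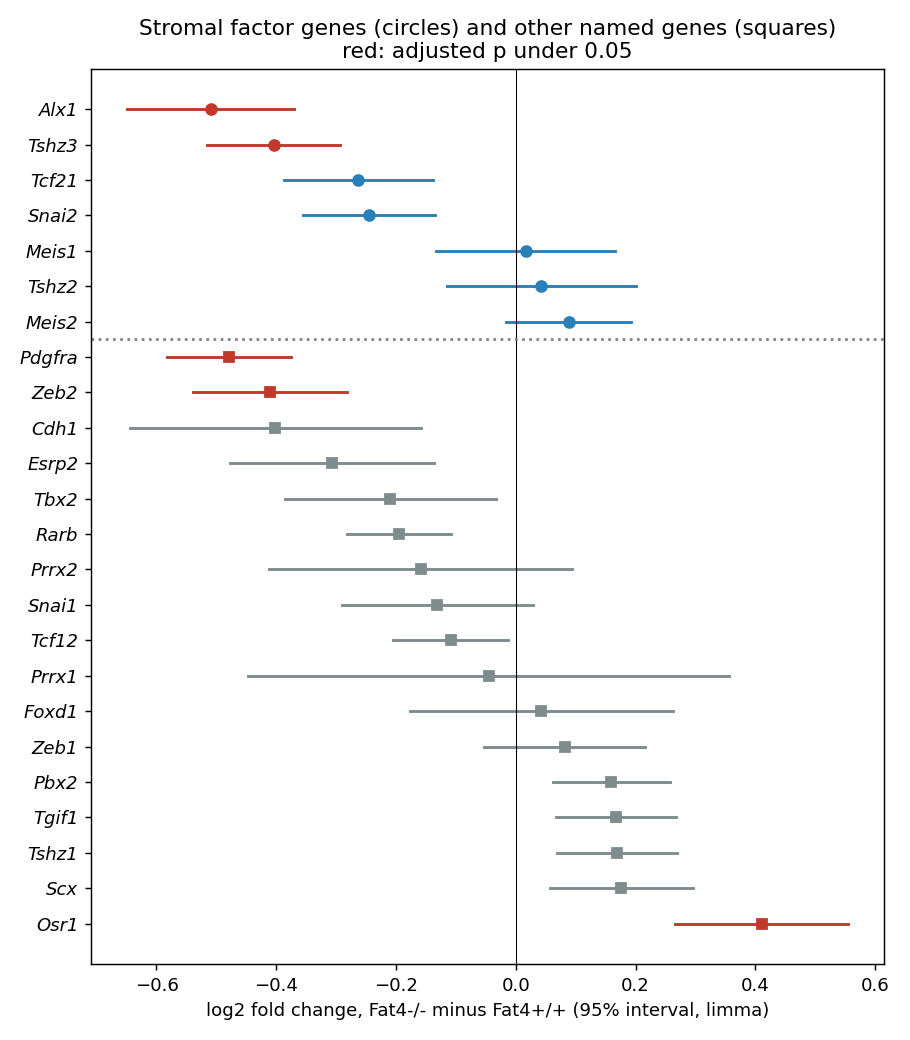
Log2 fold changes on the log2(cRPKM + 1) scale, Fat4-/- minus Fat4+/+ (x axis), with 95% intervals from limma, for the 7 stromal factor genes (circles, top) and other named genes (squares, below). Red marks an adjusted p under 0.05, which holds for Alx1, Tshz3, Pdgfra, Zeb2 and Osr1; Foxd1 lies at 0.04.

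Several of the 7 factors are also made by other cells, and the markers of those cells are given beside them. Tcf21 is expressed by podocytes as well as stroma. Of the 7 other podocyte markers, 4 were high enough to test and none passed, with 3 entirely lower and 1 entirely higher (Wt1) in mutant libraries. Their summed level was 94.4 to 98.0 cRPKM in mutant and 91.4 to 101 cRPKM in wildtype libraries. The defining podocyte gene Nphs1 was at 0.00 to 0.01 cRPKM in mutant and 0.08 to 0.35 cRPKM in wildtype libraries. The part of podocytes in the level of Tcf21 was not tested.

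Snai2 is a gene of neural crest too. Of 7 markers of nerve and neural crest 3 were tested and none passed, and the summed level was 10.9 to 12.0 cRPKM in mutant and 12.5 to 18.2 cRPKM in wildtype libraries. The crest factors Sox10 and Foxd3 were near 0, at 0.01 to 0.03 and 0.00 to 0.01 cRPKM in mutant and 0.05 to 0.24 and 0.02 to 0.03 cRPKM in wildtype libraries. Without wildtype embryo 3, which held most Tubb3, Snai2 had a log2 fold change of -0.26, against -0.24 with it. Skeletal muscle markers summed to 3.87 to 6.23 cRPKM in mutant and 5.31 to 12.5 cRPKM in wildtype libraries, highest in wildtype embryo 1. Without that embryo Alx1 was at -0.55 and Tshz3 at -0.42, and both passed (limma adjusted p = 0.0217 and 0.0320).

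Of stromal markers, 1 of 10 in the cortical list fell (Pdgfra) and none rose, and the summed level was 931 to 997 cRPKM in mutant and 923 to 1152 cRPKM in wildtype libraries. None of 6 in the medullary list passed, which summed to 435 to 503 cRPKM in mutant and 422 to 470 cRPKM in wildtype libraries. Most of that sum was Cdkn1c, at 369.28 to 434.6 cRPKM in mutant and 338.9 to 399.37 cRPKM in wildtype libraries. The defining genes of the list, Penk and Wnt5a, did not overlap between genotypes. They were at 7.96 to 9.97 and 6.17 to 7.25 cRPKM in mutant and 11.89 to 18.90 and 8.39 to 8.54 cRPKM in wildtype libraries (limma adjusted p = 0.0540 and 0.0590). In the same list Tnc, for the matrix protein tenascin C, was entirely higher, at 11.34 to 12.86 cRPKM in mutant and 9.65 to 11.18 cRPKM in wildtype libraries (log2 fold change 0.20, limma adjusted p = 0.236), and the other 3 genes overlapped. Of nephron progenitor markers 3 of 10 rose (Eya1, Osr1 and Meox2) and none fell, with a summed level of 471 to 537 cRPKM in mutant and 400 to 442 cRPKM in wildtype libraries. All 3 calls ended with the Y-linked covariate (limma adjusted p = 0.179 to 0.504), and those of Osr1 and Meox2 also without any 1 mutant embryo, without wildtype embryo 1 and without the filter (0.0631 to 0.111). How far the mix of cells bears on Alx1, Tshz3, Tcf21 and Snai2 was not tested.

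Genes with the most similar course over the 6 libraries were found by the root mean square difference between log2 values, each centred on the gene's own mean. For Alx1 these were Apcdd1, a membrane inhibitor of Wnt signalling (difference 0.0493), and the glutathione transferase gene Gsta3 (0.0602). Both fell, with log2 fold changes of -0.51 and -0.43 (limma adjusted p = 0.00805 and 0.0191). With the Y-linked covariate neither passed (0.227 and 0.446), and Gsta3 also lost its call without any 1 mutant embryo and without the filter (0.0502 to 0.0796). For Tshz3 they were Slc9a9, a sodium and proton exchanger (0.0391), and again Gsta3 (0.0392). Tcf21 lay closest to Kirrel3 (0.0312) and Bambi (0.0324), and Snai2 to Efcab1 (0.0254) and Zfp583 (0.0352). Among the factors that overlapped, Meis2 lay closest to Dusp1 (0.0118) and Rae1 (0.0163), Meis1 to Arsb (0.0279) and Wdr55 (0.0281), and Tshz2 to Kalrn (0.0237) and Chad (0.0271). These are the nearest of 12315 tested genes, over 6 points that share 2 genotypes. Genes picked for a course close to that of a lower factor are lower by selection. Their fold changes and p-values are therefore no separate result.

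**Figure D5:**
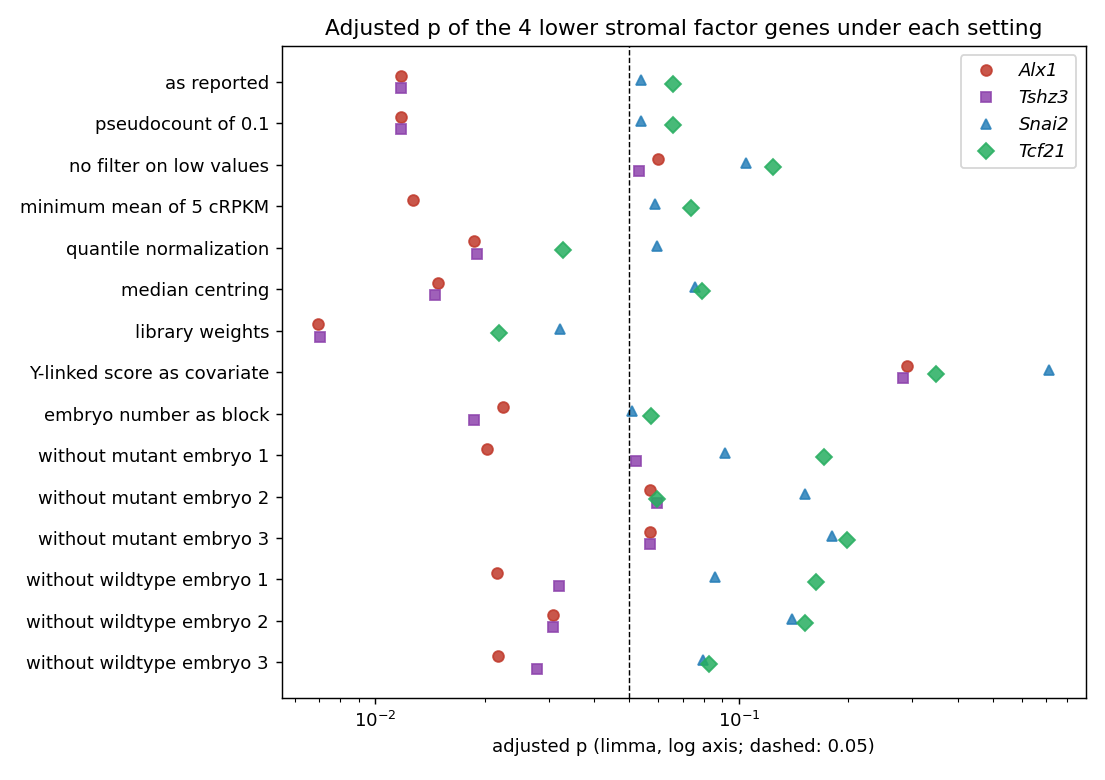
Adjusted p (log x axis, limma) of Alx1, Tshz3, Snai2 and Tcf21 as reported and under 14 other settings (y axis), with a dashed line at 0.05. Alx1 and Tshz3 lie left of the line as reported and right of it without mutant embryo 2 or 3, without a filter and with the Y-linked score; Tshz3 has no value at a minimum mean of 5 cRPKM.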

How the data were processed

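Total RNA from both kidneys of 6 embryos was sequenced as 1 library per embryo. The authors deposited 1 table of RPKM in a corrected form named cRPKM, made from trimmed reads per the file headers; the correction and the counting were not stated in the sources used. Bowtie and mm9 are named in the submitters' processing notes, with no version. Handling of reads shared by paralogues or by overlapping or antisense genes is not given either, so levels of such genes are uncertain.

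Columns were matched to samples by the header text in the labels. Because the values are not counts, log2(cRPKM + 1) was tested with limma 3.58.1 in R 4.3.3 (lmFit and eBayes with a trend, 2-sided, with genotype alone in the model) for the 12315 genes that averaged 1 cRPKM or more. Benjamini-Hochberg adjustment ran over all of them, with calls at 0.05. Fold changes on this scale understate those of low genes. An exact permutation test of 3 embryos against 3 cannot go below p = 0.1. The fit was tested on simulated data. Depth is unknown, and 3 embryos a group limit the precision.

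The 7 genes and the gene lists were chosen with earlier results of these data known. From 7 lists of relatives and partners, called genes and the 2 others with the smallest p were named, with Foxd1, Tshz1, Pdgfra and Fat4, and for each factor the 2 genes of nearest course; from 14 marker lists, mainly the first 2 genes of lists that bear on a factor. Dcn, Tubb3, Acta2, Tagln, Des, Tnc and other markers were named after their values were seen. Results of a few single genes are left out. Gene positions came from GENCODE M21 (GRCm38) by Ensembl identifier and promoters from RefSeq on GRCm38.p6, and differ from mm9 coordinates. Alternatives were another pseudocount (0.1), other filters on low values, quantile and median scaling, library weights, a Y-linked covariate, the embryo number as a block and leaving out each library, which were also run for Des, Eya1, Meox2, Apcdd1 and Gsta3 after their values were seen.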

Additional observations from a re-analysis of the deposited data

How the results depend on the processing

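As reported, 2 of the 7 factors were called lower. That count was 0 without a filter on low values and 0 with the Y-linked covariate, 1 with a minimum mean of 5 cRPKM (Tshz3 is then not tested), 4 with library weights, and 0 to 2 with 1 library left out. No factor was called higher under any setting tried. Over all genes, as reported, 68 were higher and 108 lower. There were 10 and 22 without a filter (18735 genes tested), 1 and 1 with the Y-linked score, 61 lower at the minimum of 5, and 7 to 53 higher and 17 to 87 lower with 1 library left out. The causes were not tested. With the replicate block there were 109 higher and 164 lower genes, and Alx1 and Tshz3 were called (limma adjusted p = 0.0225 and 0.0187), as were no other factors. The embryo numbers are not said to pair the animals, so they were not taken as pairs. The deviations of same-numbered embryos correlated at 0.0986, 0.206 and 0.277 across genes, and those of other combinations at -0.373 to 0.227. These correlations cannot decide on pairing, because the deviations of the 3 embryos of a group sum to 0.

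Alx1 kept its sign in 14 settings (log2 fold change -0.58 to -0.41, adjusted p 0.00697 to 0.290) and Tshz3 in 13 (-0.49 to -0.36, 0.00707 to 0.282). Tcf21 ran from -0.35 to -0.22 (0.0219 to 0.348) and Snai2 from -0.27 to -0.19 (0.0323 to 0.712). Cdh1 passed with the replicate block (0.0352) and Rarb with library weights (0.0461). Signs turned for 4 genes that never passed. Meis1 was at -0.040 with library weights, -0.023 with the Y-linked score and -0.059 to 0.069 with 1 library left out. Foxd1 was at -0.058 with library weights, -0.031 with the Y-linked score and -0.054 to 0.11 with 1 library left out. With 1 library left out Tshz2 ran from -0.027 to 0.12 and Prrx1 from -0.25 to 0.17. Read totals are unknown, so the counting error of the low genes Alx1 and Tshz3 could not be given.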
